A study of Mus musculus with 6 samples.

Results

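TRIM genes encode a large family of ubiquitin ligases, and 43 of them were followed in whole lungs of Balb/c mice 7 days after intravenous injection of 4T1 cells, a mouse mammary carcinoma line that colonises the lung. Members were all rows with a mouse symbol made of Trim, digits and optional letters and with a summed count of at least 60 over the 6 libraries. The pattern matched 67 of the 35275 gene rows, and 43 of these reached the minimum. Of the 24 rows below it, 8 held no count in any library. The members nearest above the minimum were Trim30c with 70 and Trim17 with 78 counts, and the rows nearest below were Trim67 with 52 and Trim15 with 34.

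Mice received 250000 cells of either unmodified 4T1 (labelled 4T1.WT, 3 libraries, called WT lungs here) or 4T1 without PD-L1 (labelled 4T1.PD-L1 KO, 3 libraries, called KO lungs). All mice were Balb/c, blood was flushed from the lungs with 20 mL of PBS, and no label reports an edit in the mice, so the deletion belongs to the injected cells alone. The sources used here do not give the age of the mice, the number of clones behind the KO line or whether each library came from a separate animal. The series title names tumour PD-L1, myeloid PD-1 and type I interferon, and the comparison asks how TRIM RNA differs between these lungs.

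TRIM proteins share an amino-terminal arrangement of a RING finger, B-box zinc fingers and a coiled coil, and the RING passes ubiquitin from a conjugating enzyme to a substrate. The carboxy-terminal part differs between classes. PRY-SPRY domains bind viral capsids, antibodies or signalling proteins, PHD fingers with bromodomains read chromatin, and NHL repeats bind RNA or protein partners. Interferon induces a subset of the family, and several of those members in turn tune RIG-I, STING and NF-kB signalling.

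Libraries held 14711459 to 16932114 counts, so 3 counts, the limit that a count of 0 allows, correspond to 0.177 to 0.204 CPM (read counts scaled to library size). Lung identity was present in each library, with 5 genes of alveolar type 2 cells summing to 11131 to 13671 CPM. The targeted gene Cd274, which encodes PD-L1, was at 62.6, 53.6 and 74.3 CPM in the WT libraries, against 97.4, 197.4 and 300.5 in the KO libraries. The log2 difference of Cd274 was 1.65 ± 0.42 (SE, edgeR adjusted p = 0.161), higher rather than lower in KO lungs. Host cells keep this gene, and an edited copy may still yield reads, so these values do not check the labels. In whole-organ RNA, more cells of a type and more RNA per cell cannot be told apart.

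The family as a whole held nearly the same amount of RNA in both kinds of lung, and no single member passed the test. Summed over the 43 members, TRIM RNA was at 2059.7, 2039.7 and 2056.1 CPM in the WT libraries, against 2030.2, 2009.9 and 2058.3 in the KO libraries. The members with the smallest p among those higher in KO lungs were Trim30a, Trim21, Trim30d and Trim7, and among those lower Trim62, Trim23, Trim17 and Trim2. By edgeR's quasi-likelihood test at an adjusted p of 0.05, 0 of the 42 members that passed the low-count filter were higher or lower, where 1.12% of all 15191 genes tested were higher, 0.336% lower and 1.45% either. At an unadjusted p under 0.05, 5 members were higher and 5 lower in KO lungs, against 8.29% of all genes higher and 6.33% lower. DESeq2 called 1 of the 40 members to which it gave an adjusted p, Trim30a, and 4.13% of all genes, and limma-voom called 0 of 42 members and 1.37% of all genes.

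The members' log2 differences had a median of -0.01, beside 0.01 for all genes, and were above 0 for 21 of 42 members, against 50.9% of all genes. They lay above 0.5 for 7 members (11.1% of all genes) and below -0.5 for 3 (5.98% of all genes). In 10 of the 43 members every KO library lay above every WT library and in 5 every KO library lay below. Among them Trim30c, Trim30d and Trim34b reached the summed-count minimum only with KO counts, and Trim17 only with WT counts. Over the 42 members tested, 9 were separated upward, against 10.3% of all genes tested, and 5 downward, against 9.4%. The interferon-linked group held 6 of the 9 upward and none of the 5 downward members.

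**Figure D1:**
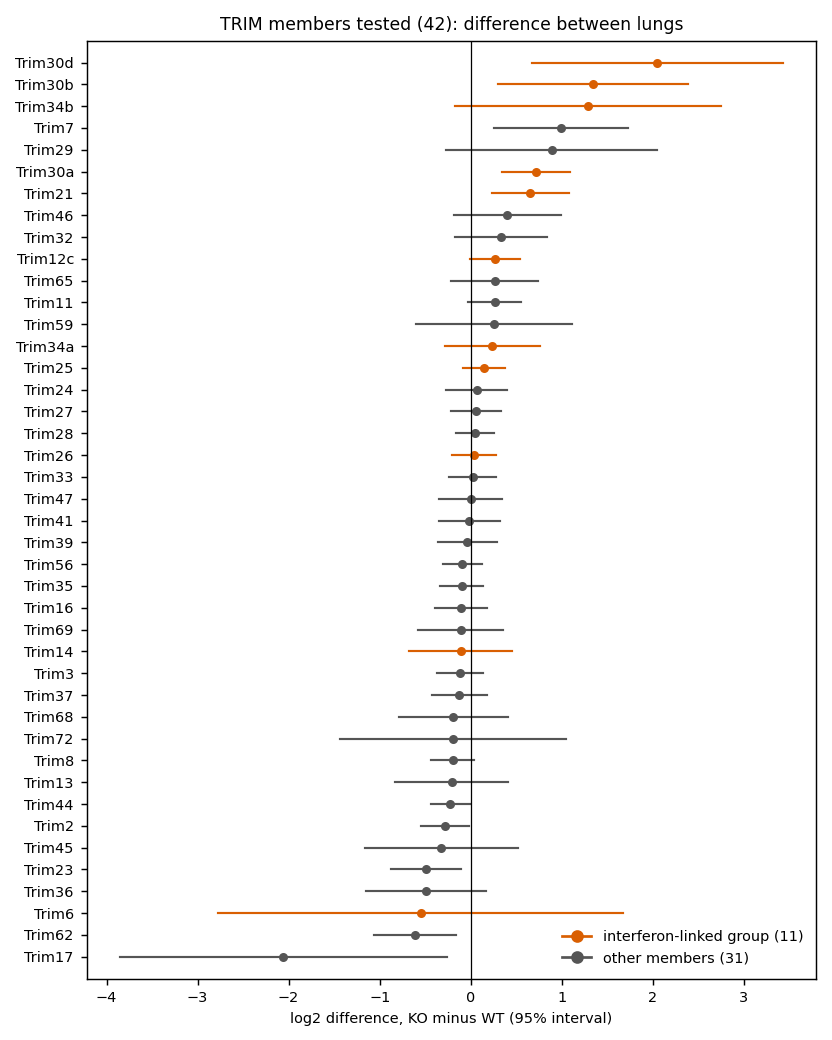
Each point is the log2 difference (KO minus WT) of a TRIM member and each bar its 95% interval, for the 42 members tested, ordered by size; orange marks the 11 tested members of the interferon-linked group and grey the other 31. Of the 7 members above 0.5, 5 are orange, from Trim21 at 0.65 to Trim30d at 2.05, and 2 are grey (Trim7 and Trim29). The orange Trim25, Trim26 and Trim14 lie between -0.11 and 0.14. The orange Trim6, at -0.55, is 1 of the 3 members below -0.5. Trim30d and Trim34b, both orange and above 0.5, reached the summed-count minimum and passed the low-count filter only with KO counts.

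The interferon-linked group, limited to the PRY-SPRY class, was drawn up from general knowledge and held 12 members: Trim6, Trim12c, Trim14, Trim21, Trim25, Trim26, Trim30a, Trim30b, Trim30c, Trim30d, Trim34a and Trim34b. Trim30c did not pass the filter. None of the other 11 passed the test. At an unadjusted p under 0.05, 4 of the 11 were higher and none lower, against 8.29% and 6.33% of all genes. The log2 differences of these 11 had a median of 0.27 and were positive for 9, where 50.9% of all genes were positive. Trim30d is in both counts and Trim34b among the 9. Both reached the summed-count minimum and passed the low-count filter only with KO counts. The 31 tested members outside the group had a median of -0.10, with 12 positive. Trim56 and Trim69 were placed outside it, among other regulators of innate signalling, and had log2 differences of -0.09 and -0.11. The group was chosen with results of these data known, so its count is no independent evidence of a direction. Trim38, of the same class, lay below the minimum of the rule, with no count in WT libraries and 6, 0 and 18 counts in KO libraries.

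Promoter sequence is shown for members with the core of the interferon-stimulated response element, a short DNA motif found in front of many interferon-induced genes. The core was searched as GAAA, any 2 bases, GAAA on both strands of RefSeq windows (GRCm38.p6) running from 250 bases before to 50 bases after each start site. Of the 43 members, 32 had a window, and 7 of these (21.9%) held the core, against 3.99% of all 27025 genes with a window. The 7 were Trim21, Trim30a, Trim30d, Trim12c, Trim34a, Trim26 and Trim2. The stretches below are written 5′ to 3′ along the gene, with each core in capitals. Trim30a, Trim30d and Trim12c are shown for the 100 bases before the start site, Trim26 for a stretch further upstream with overlapping cores, and Trim21 and Trim34a for 30 bases just after the start site. Trim25 is shown as an interferon-linked member whose window held no core; the stretches were chosen after the values were seen.
Trim30a, chr7:104465194-104465293, minus strand: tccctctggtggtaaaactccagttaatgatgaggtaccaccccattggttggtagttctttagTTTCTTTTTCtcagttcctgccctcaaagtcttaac
Trim30d, chr7:104507850-104507949, minus strand: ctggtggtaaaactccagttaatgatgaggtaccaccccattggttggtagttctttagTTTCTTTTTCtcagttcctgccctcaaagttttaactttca
Trim12c, chr7:104353350-104353449, minus strand: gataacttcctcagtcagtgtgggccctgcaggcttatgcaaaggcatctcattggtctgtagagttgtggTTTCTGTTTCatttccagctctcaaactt
Trim26, chr17:36836966-36837025, plus strand: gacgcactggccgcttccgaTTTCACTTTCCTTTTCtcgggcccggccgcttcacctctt
Trim21, chr7:102565445-102565474, minus strand: gagagGAAACTGAAAGTGAAAtttggactg
Trim34a, chr7:104244462-104244491, plus strand: tggagTTTCAGTTTCttttctctgcagtca
Trim25, chr11:88999303-88999402, plus strand: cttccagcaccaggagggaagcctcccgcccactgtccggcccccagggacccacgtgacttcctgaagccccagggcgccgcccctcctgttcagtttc

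The Trim30a and Trim30d stretches were identical at 94 of 105 aligned columns, and the 2 genes are neighbours. Of the 7 members with the core, 6 belong to the interferon-linked group. The log2 differences (KO minus WT) of the 7 ran from -0.29 (Trim2) to 2.05 (Trim30d) with a median of 0.27. Those of the 24 tested members whose windows lacked the core ran from -0.61 to 1.34 (Trim30b), with a median of -0.03. Every KO library lay above every WT library for 4 of the 7 and for 4 of the 24, against 10.3% of all genes tested. Trim30d with the core and Trim34b without it are among these. Both reached the summed-count minimum and passed the low-count filter only with KO counts. The members were not drawn independently of the values, so these counts do not link the core to a difference. The Trim30b window lies inside the annotated gene rather than before it. The same holds for the Trim2 window with the core (84212789 to 84213088), among 5 windows of that gene. The core of the gamma-activated site, TTC and GAA spaced by 3 bases, was found in 3 members (9.38%), against 9.55% of all genes, and the form spaced by 4 bases in 4 members (12.5%), against 8.01%. These matches describe letters in a window and do not show binding.

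Trim30a, an interferon-inducible member of rodents that restrains NF-kB signalling, was at 43.8, 51.4 and 55.1 CPM in the WT libraries, against 61.9, 78.6 and 106.9 in the KO libraries. No KO library was as low as any WT library, and KO replicate 3 was the highest. The log2 difference was 0.72 ± 0.17 (SE), a 1.65-fold higher mean level, and missed the threshold (edgeR adjusted p = 0.0571). The gene (ENSMUSG00000030921) lies on chromosome 7, 104409025 to 104465193, on the minus strand. Among other settings, Trim30a passed without KO replicate 1 (adjusted p = 0.00376), without the low-count filter (adjusted p = 3.29e-05) and with DESeq2 (adjusted p = 0.00758). Over all alternatives its adjusted p ran from 3.29e-05 to 0.235, the latter without KO replicate 3, where the log2 difference was 0.48.

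Trim21 encodes the cytosolic antibody receptor that directs antibody-coated virus to the proteasome, and was at 20.8, 14.6 and 18.6 CPM in the WT libraries, against 22.5, 28.4 and 33.9 in the KO libraries. The groups did not overlap, although WT replicate 1 and KO replicate 1 were close. The log2 difference was 0.65 ± 0.20 (edgeR adjusted p = 0.127). It passed without the low-count filter (adjusted p = 0.0240) and without KO replicate 1 (adjusted p = 0.0439), and over all alternatives the adjusted p reached 0.42. Trim21 lies on chromosome 7, 102557921 to 102565486. Its neighbour Trim68 (102677582 to 102687327), within 500 kb, had overlapping groups and a log2 difference of -0.19 ± 0.28.

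Trim25, the ligase that modifies RIG-I and works with the antiviral factor ZAP, was the most abundant member of the group, also per length. It was at 159.1, 162.0 and 177.7 CPM in the WT libraries, against 167.2, 201.2 and 182.5 in the KO libraries, and the groups overlapped. The log2 difference of 0.14 ± 0.11 missed the threshold (edgeR adjusted p = 0.583), and its 95% interval ran from -0.09 to 0.37. Trim25 lies on chromosome 11, 88999376 to 89020293. Trim26, which lies in the H2 region of chromosome 17, had a log2 difference of 0.04 with a 95% interval of -0.20 to 0.28. For Trim14, a RING-less adaptor of the mitochondrial antiviral platform, the log2 difference was -0.11 and the interval -0.68 to 0.45. Exons of other genes, among them Nans, cover 38.04% of the exonic bases of Trim14, and the strand setting of the counting is not given.

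The remaining interferon-linked members lie with Trim30a in a gene cluster on chromosome 7 (104218793 to 104507849), which holds 10 TRIM rows, 8 of them members. Mouse Trim12c is a counterpart of the human retroviral restriction factor TRIM5. It was at 63.9, 59.5 and 57.6 CPM in the WT libraries, against 64.2, 69.8 and 84.0 in the KO libraries. KO replicate 1 and WT replicate 1 nearly met, and the log2 difference was 0.27 ± 0.13 (edgeR adjusted p = 0.349). Trim34a overlapped between the groups, with a log2 difference of 0.24 ± 0.24.

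The other Trim30 genes were expressed at low levels. Trim30d had 10, 6 and 26 counts in the WT and 27, 71 and 82 counts in the KO libraries. The groups were separated by little, since WT replicate 3 (1.71 CPM) was almost level with KO replicate 1 (1.74 CPM). The log2 difference of 2.05 ± 0.64 was the largest positive difference of the members tested and missed the threshold (edgeR adjusted p = 0.142). It passed only without the low-count filter (adjusted p = 0.0171) among the alternatives run, and without WT replicate 3 the log2 difference was 2.86. Trim30b was at 2.20, 1.23 and 1.25 CPM in the WT libraries, against 2.64, 3.604 and 5.61 in the KO libraries (log2 difference 1.34 ± 0.49, edgeR adjusted p = 0.211). Trim34b, with 116 counts in all (12, 9 and 12 in WT and 22, 23 and 38 in KO libraries), had a log2 difference of 1.29 ± 0.68 (edgeR adjusted p = 0.408). Trim30d and Trim34b reached the summed-count minimum and passed the low-count filter only with counts of the KO libraries, where they were higher.

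Trim30c had 8, 0 and 0 counts in WT and 14, 9 and 39 counts in KO libraries, too few to be tested. Trim6 ran against the rest of the cluster, with a log2 difference of -0.55 and a 95% interval of -2.77 to 1.67 on 80 counts. Among cluster rows that are not members, Trim5 held 7 counts and Trim12a 2. Summed over the 8 members, the cluster was at 120.0, 125.9 and 129.1 CPM in the WT libraries, against 144.3, 171.0 and 220.8 in the KO libraries. Its highest value fell in KO replicate 3 for 7 of the 8 members, Trim6 being the exception. Trim30c, Trim30d and Trim34b are among the 7, and they reached the summed-count minimum only through the KO libraries.

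**Figure D2:**
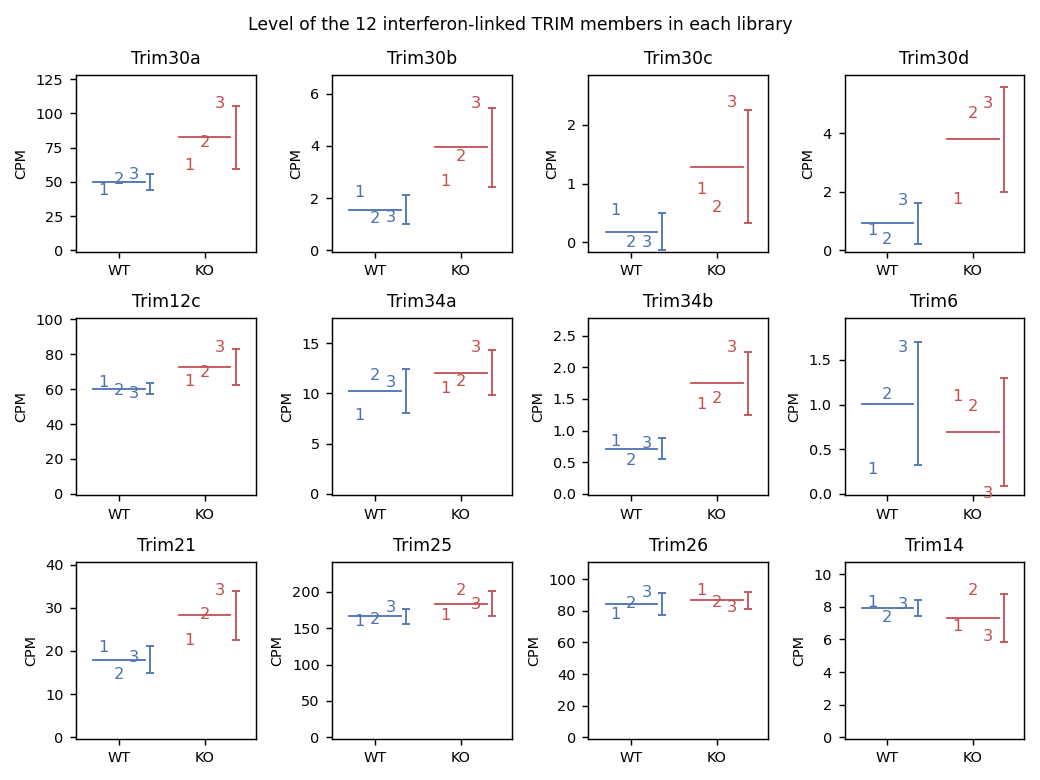
CPM of the 12 interferon-linked members in each library, drawn as the replicate number (blue WT, red KO), with the group mean as a line and the SD (n = 3) as a bar. KO replicate 3 carries the highest value for Trim30a, Trim30b, Trim30c, Trim30d, Trim12c, Trim34a, Trim34b and Trim21, while Trim25, Trim26 and Trim14 overlap between the groups.

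Genes of the cluster resemble each other, which limits how their reads can be assigned. Of the 75-base stretches in Trim34b transcripts, 42.5% also occur in another gene, mainly Trim34a, and for Trim34a the share was 29.5%. Trim12c shared 16.9% with Trim5, Trim12a and Gm27995, Trim30d 5.41% and Trim30a 4.98%, while Trim30b shared 0.078% and Trim30c 0.0%. With Trim30a to Trim30d summed before the fit, an alternative chosen after seeing the data, the counts were 687, 902 and 884 in WT and 1043, 1335 and 1967 in KO libraries. That sum passed, with a log2 difference of 0.80 ± 0.18 (edgeR adjusted p = 0.0425). It includes Trim30c and Trim30d, which reached the summed-count minimum only with KO counts, and the Trim30 genes share few such stretches. The sums of Trim34a with Trim34b (log2 difference 0.34 ± 0.23) and of Trim12c with Trim5 and Trim12a (0.27 ± 0.13) did not pass.

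Type I interferon response genes were set beside the family as a reference list of 20, of which 18 rose and none fell, with a median log2 fold change of 1.31. This list was also chosen with earlier results known. As medians of log2(CPM + 1) relative to the WT mean, the reference genes stood at 0.73, 1.29 and 1.61 in KO replicates 1, 2 and 3. The interferon-linked TRIM members stood at 0.22, 0.37 and 0.69 in the same libraries, and the 31 other TRIM members at 0.02, -0.06 and -0.06. KO replicate 3 held the highest value for 19 of 20 reference genes and for 8 of 12 interferon-linked TRIM members, against 5 of 31 other members. Trim30c, Trim30d and Trim34b are among these 8 and reached the summed-count minimum only with KO counts.

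**Figure D3:**
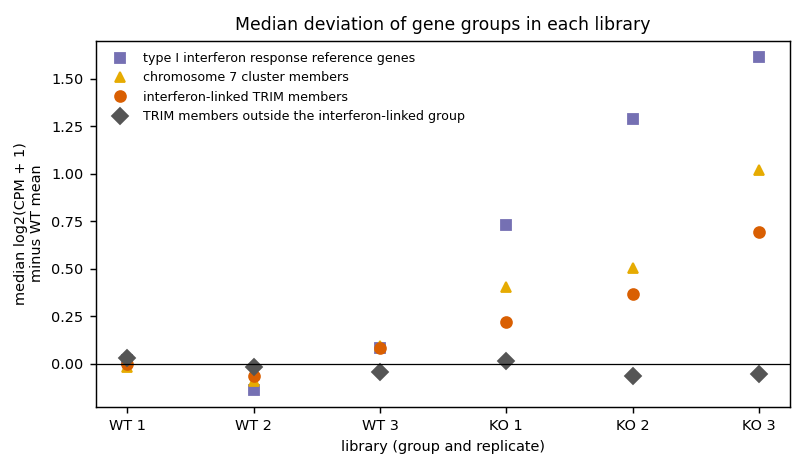
Median of log2(CPM + 1) minus the WT mean in each library, for 20 type I interferon response genes (squares), the 8 TRIM members of the chromosome 7 cluster (triangles), the 12 interferon-linked TRIM members (circles) and the 31 other TRIM members (diamonds). KO replicate 1 is the lowest and KO replicate 3 the highest KO library for the first 3 groups, and the diamonds stay between -0.06 and 0.03.

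Markers of several blood-derived cell types were also higher in KO lungs. The 6 monocyte and macrophage markers summed to 259.3 to 317.9 CPM in WT and 354.8 to 479.4 CPM in KO lungs, 3 of 6 rose (Ly6c2, Ccr2 and Fcgr1), and none was at 0. Ly6c2, a monocyte surface gene, was at 11.4, 13.2 and 17.6 CPM in the WT libraries, against 35.9, 40.1 and 55.2 in the KO libraries. The 5 plasmacytoid dendritic cell markers summed to 319.1 to 332.9 and 418.9 to 440.3 CPM, where 2 of 5 rose (Ccr9 and Bst2, the latter also on the interferon list). Without Bst2, left out after its values were seen, the other 4 summed to 256.4 to 271.3 and 271.2 to 287.3 CPM. These sums overlapped between the groups. Tcf4 made up most of them, with means of 242.2 (WT) and 233.1 CPM (KO) and a log2 difference of -0.06. For Siglech, Ccr9 and Runx2 every KO library lay above every WT library, a separation held by 10.3% of all genes tested. Their log2 differences were 1.15, 1.84 and 0.49, and Siglech and Runx2 did not pass. The 5 neutrophil markers summed to 156.8 to 255.7 and 304.7 to 477.5 CPM, where 2 of 5 rose (S100a8 and S100a9). For Csf3r, Cxcr2 and Retnlg the groups overlapped, with log2 differences of 0.44, 0.55 and 0.52 that did not pass. Of the 5 T cell and the 5 B cell markers none passed. In each of these lists 3 were higher at an unadjusted p under 0.05, against 8.29% of all genes. The part of these cells in the TRIM values was not tested.

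Of 10 other TRIM regulators of innate signalling none passed, and the median log2 difference was -0.11. At an unadjusted p under 0.05, 1 was lower, against 6.33% of all genes. Trim62 alone among them had groups that did not overlap. Trim56, which promotes cGAS and STING signalling, had the highest mean over the 6 libraries before scaling to length, at 223.1, 235.5 and 253.4 CPM in the WT libraries, against 223.1, 217.3 and 227.7 in the KO libraries. The groups overlapped, with means of 237.3 ± 15.2 and 222.7 ± 5.17 CPM (SD, n = 3 per group). Its 95% interval of the log2 difference ran from -0.30 to 0.12. Trim8, a regulator of cytokine and NF-kB signalling, was at 174.3, 158.5 and 148.9 CPM in the WT libraries, against 154.7, 128.2 and 136.3 in the KO libraries (log2 difference -0.20 ± 0.11, edgeR adjusted p = 0.429). Trim35 was at 148.4, 120.8 and 137.5 CPM in the WT libraries, against 131.5, 116.9 and 130.9 in the KO libraries, with overlapping groups and a log2 difference of -0.10 ± 0.11.

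Trim62, which modifies the antifungal adaptor CARD9, was the member of this set with the smallest p. It was at 21.6, 24.7 and 20.1 CPM in the WT libraries, against 16.9, 16.1 and 10.5 in the KO libraries. Every KO library lay below every WT library, with a log2 difference of -0.61 ± 0.21 that missed the threshold (edgeR adjusted p = 0.182). Trim23, which carries an ARF GTPase domain and modifies NEMO, showed the same order, at 28.7, 27.2 and 24.0 CPM in the WT libraries, against 20.9, 15.01 and 20.9 in the KO libraries. Its log2 difference was -0.49 ± 0.18 (edgeR adjusted p = 0.217).

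The 3 chromatin members had log2 differences between 0.02 and 0.06. Trim28, the corepressor recruited by KRAB zinc finger proteins, was at 124.6, 126.8 and 124.6 CPM in the WT libraries, against 126.7, 136.2 and 125.1 in the KO libraries. Its log2 difference was 0.05, with a 95% interval of -0.17 to 0.26. Trim33, a reader of histone marks that acts on Smad signalling, had 0.02 (-0.24 to 0.28), and Trim24 had 0.06 (-0.27 to 0.40). Of 7 partner genes of Trim28 and Trim33, among them Setdb1 and Smad4, none passed, also at an unadjusted p under 0.05, and the median was -0.03. Trim66, the other PHD and bromodomain gene, held 29 counts and was no member.

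None of the NHL repeat members Trim2, Trim3 and Trim32 passed, and among them Trim2 was lower at an unadjusted p under 0.05. Trim2, a ligase of neurofilament light chain, was at 58.8, 54.7 and 54.2 CPM in the WT libraries, against 48.7, 43.2 and 45.7 in the KO libraries. The groups did not overlap, with a log2 difference of -0.29 ± 0.12 (edgeR adjusted p = 0.293). Trim3 had a negative and Trim32 a positive log2 difference, both with overlapping groups. Trim45, which has no NHL repeats, had a log2 difference of -0.32 ± 0.39 and overlapping groups. Trim44, which lacks a RING and carries a zinc finger of deubiquitinases, was at 223.8, 259.2 and 240.4 CPM in the WT libraries, against 207.6, 213.2 and 198.5 in the KO libraries. It was lower in every KO library, by a log2 difference of -0.22 ± 0.10 (edgeR adjusted p = 0.320).

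Trim7, a ligase that binds glycogenin, was at 2.75, 2.76 and 4.92 CPM in the WT libraries, against 8.17, 6.49 and 6.10 in the KO libraries. The groups did not overlap, and unlike the chromosome 7 cluster its highest value was in KO replicate 1. The log2 difference was 0.99 ± 0.34 (edgeR adjusted p = 0.181). Trim17, studied mainly in neurons, had 24, 17 and 22 counts in WT and 5, 8 and 2 counts in KO libraries, a log2 difference of -2.06 ± 0.84 that missed the threshold (edgeR adjusted p = 0.268). Trim17 reached the summed-count minimum and passed the low-count filter only with the WT libraries, where it was higher. Exons of other genes, among them the histone gene Hist3h2a, cover 24.0% of the exonic bases of Trim17.

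TRIM genes tied to other tissues had few counts. Of the striated muscle class, Trim72, which seals membrane lesions in muscle, held 178 counts and had a log2 difference of -0.20 with an interval of -1.44 to 1.04. Trim54, Trim55 and Trim63 held 1, 8 and 0 counts. The 6 cardiac muscle markers summed to 11.5 to 17.9 CPM in WT and 10.4 to 29.1 CPM in KO lungs, with Nppa at 0 in all libraries. The erythroid genes Trim10 and Trim58 held 17 and 14 counts. Of the neuronal and microtubule class, Trim36 and Trim46 were members, with log2 differences of -0.49 ± 0.31 and 0.40 ± 0.27, and neither passed.

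Per kilobase of exon, the scale on which genes can be compared with each other, mean levels over the 6 libraries ran from 0.174 (Trim6) to 40.5 CPM per kb (Trim8), with a median of 4.68. Trim44 followed at 39.6 and Trim28, Trim25, Trim35 and Trim56 at 30.6, 30.4, 28.4 and 24.8 CPM per kb. Trim30a ranked 11 and Trim21 ranked 17 of 43. The 6 highest members all had log2 differences between -0.22 and 0.14. Among the 42 members tested, 20 had a 95% interval lying wholly within a 1.5-fold change either way and 28 within a 2-fold change. The wider intervals belong mostly to low members such as Trim6, Trim17, Trim34b and Trim30d.

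**Figure D4:**
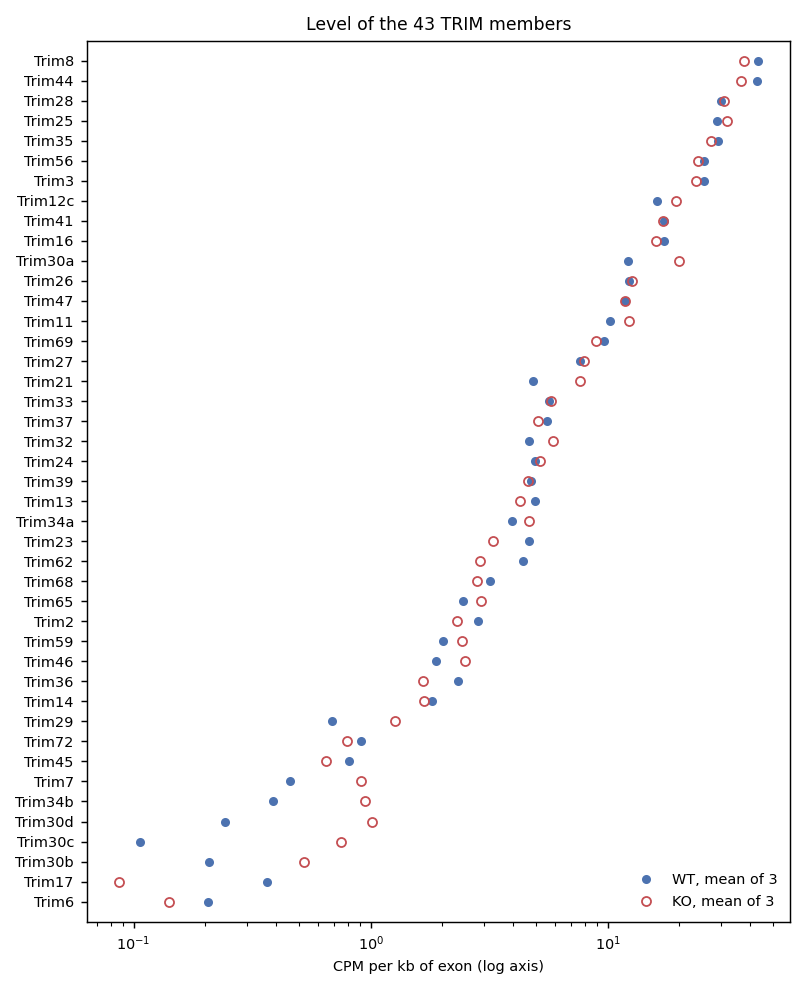
Mean level of the 43 members in CPM per kb of exon on a log axis, ordered by the mean over the 6 libraries (filled blue WT, open red KO, each the mean of 3). The upper 7 genes, from Trim8 to Trim3, lie above 20 CPM per kb in both groups. The widest gaps between the groups are at the low end, where Trim30b, Trim30c and Trim30d lie to the right and Trim17 to the left in KO lungs. Trim30c, Trim30d and Trim17 reached the summed-count minimum only with the group where they are higher.

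TRIM family genes that carry other symbols fall outside the naming rule and were taken from a short list of 4, of which 1 rose and none fell. Pml, the scaffold of nuclear bodies, was at 43.6, 37.2 and 37.2 CPM in the WT libraries, against 49.0, 66.3 and 75.6 in the KO libraries. It rose (log2 fold change 0.70 ± 0.16, edgeR adjusted p = 0.0459). The call was lost with upper quartile scaling (adjusted p = 0.0501), limma-voom (0.0598) and robust=FALSE (0.0516). It was also lost on leaving out any of WT replicates 1, 2 and 3 and KO replicates 2 and 3, at adjusted p of 0.123, 0.170, 0.0992, 0.208 and 0.195. Mid2, a microtubule-binding member, had a log2 difference of -0.30 ± 0.11 (edgeR adjusted p = 0.211). For Mid1 the value was -0.19 ± 0.22, and for Mefv, the pyrin gene, 0.03 ± 0.20.

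Among 22 measured genes of the RIG-I, MDA5, cGAS and STING pathways on which TRIM ligases act, 2 rose and none fell, with a median of 0.06. These were Dhx58, which encodes the RIG-I relative LGP2 (log2 fold change 1.39 ± 0.27, edgeR adjusted p = 0.0266), and the transcription factor Irf7 (1.42 ± 0.22, edgeR adjusted p = 0.0151), which the interferon reference list also holds. The STING gene Tmem173 (0.76 ± 0.23, edgeR adjusted p = 0.127) and the MDA5 gene Ifih1 (0.42 ± 0.15, edgeR adjusted p = 0.211) followed without passing. Genes tied to named members are added here after their values were seen. The RIG-I gene Ddx58, substrate of Trim25, had a log2 difference of 0.29 ± 0.12 (edgeR adjusted p = 0.287). Its KO libraries all lay above its WT libraries, a separation held by 10.3% of all genes tested. The targets of Trim30a, Tab2 and Tab3, had log2 differences of 0.03 ± 0.10 and -0.28 ± 0.16, and neither passed. For Tab3 every KO library lay below every WT library, against 9.4% of all genes tested.

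Of 13 ubiquitin-conjugating enzymes that supply TRIM ligases, 1 rose and none fell, with a median log2 difference of 0.07. The gene that rose was Ube2l6, the conjugating enzyme of the ubiquitin-like protein ISG15, from 26.9, 20.4 and 33.5 CPM in WT to 42.03, 49.3 and 63.8 CPM in KO lungs (log2 fold change 0.94 ± 0.19, edgeR adjusted p = 0.0325). Ube2l3, Ube2k and Ube2d3 followed with log2 differences of 0.29 ± 0.15, 0.21 ± 0.12 and 0.16 ± 0.10 and did not pass. Of 6 antibody receptor genes set beside Trim21, 2 rose: Fcgr1 by 1.82 ± 0.31 and Fcgr4 by 1.55 ± 0.32 on the log2 scale (edgeR adjusted p = 0.0158 and 0.0416). Both are expressed by monocytes and macrophages, and Fcgr1 is also among the monocyte markers above. Fcgr3 (0.79 ± 0.19, edgeR adjusted p = 0.0616) and Fcer1g (0.53 ± 0.19, edgeR adjusted p = 0.187) did not pass.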

How the data were processed

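Whole-lung RNA of 6 libraries was used. Each deposited file gives raw counts by Ensembl identifier. Per the submitters' processing notes and the series' design text, the authors mapped read pairs on mm10 (GRCm38) with STAR 2.5 and obtained the counts from HTSeq 0.6.1. The sources used here state neither the annotation release nor the strand setting or counting mode. Symbols, exonic lengths and coordinates (counted from 1) came from GENCODE M21, which named 34490 of 35275 identifiers. No row lacked a gene identifier.

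KO was compared with WT in edgeR 4.0.16 (R 4.3.3): filterByExpr with a minimum count of 10, TMM, glmQLFit with robust=TRUE, group alone, Benjamini-Hochberg over 15191 genes, threshold 0.05, two-sided. SE is the log2 difference divided by the square root of F, 95% intervals use the fit's total degrees of freedom, and CPM uses TMM-scaled library sizes. P-values measure the spread between these libraries, which may be technical, and counting floors cover counting error only. The fit was tested on simulated data.

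The members and lists were chosen with earlier results of these data known. Values per library were given for Trim30a, Trim21 and Trim25, for 4 members in each direction taken by smallest p, and for the 6 highest per length, and in pathway lists for at most 4 genes by smallest p. Values of other genes were added after they were seen. No member passed, so promoters were chosen for their core. Alternatives were other scalings, filters, thresholds, membership minimums, DESeq2 1.42.0, limma-voom (limma 3.58.1), leaving out each library, a replicate block, and summed copies (chosen after seeing the data).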

Additional observations from a re-analysis of the deposited data

How the results depend on the processing

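The count of TRIM members lower in KO lungs stayed 0 under every alternative run. The count of members higher, 0 in the reported fit, was 3 without the low-count filter (Trim30a, Trim21 and Trim30d) and 1 with DESeq2 (Trim30a). At an adjusted p below 0.1 it was 1 (Trim30a), and with related copies summed it was 1 (the Trim30 sum). With 1 library left out it was 0 to 2. For the 14 members named by rule, the counts were 3, 1 and 0 to 2 without the filter, with DESeq2 and with a library left out. The 2 calls came without KO replicate 1 and were Trim30a and Trim21. None of these 14 reversed direction in the fits that gave a value, which were lacking for Trim17 with DESeq2 and for Trim30a and Trim30d with copies summed. The median log2 difference of the members, -0.01, (-0.0065 unrounded) ran from -0.0333 to 0.0146 with 1 library left out and was -0.037 with copies summed. Over all genes, 170 higher and 51 lower became 578 and 225 without the filter, 353 and 232 with DESeq2, 23 and 2 at 0.01 and 315 and 160 at 0.1. With 1 library left out they ran from 22 to 404 and from 2 to 174. As shares of all genes tested, both directions together, these were 3.69% without the filter, 4.13% with DESeq2 and 3.69% without KO replicate 1. The cause of these shifts was not tested. Same-numbered libraries had correlated deviations of 0.050, 0.023 and 0.029, below 0.1, and not every library correlated best with its own number, so the numbers were not taken as pairs. A replicate block gave 309 genes higher and 96 lower (2.67% together) and 1 TRIM member, Trim30a (adjusted p = 0.0108), the 1 call among the 14. At this depth 28 of 42 intervals lay within a 2-fold change, and the others were wider.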
